A study of Vitis vinifera with 24 samples.

Results

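A set of 147 grapevine genes was highest in leaves under salt among the stresses given without trehalose. The set was chosen from FPKM values (fragments of a transcript scaled to its length and to all mapped fragments of the library) on a scale of log2(FPKM + 1), from the 20053 genes that reached 1 FPKM in 3 or more libraries, of 35840 genes in all. A gene belonged to it when its mean in NaCl leaves was at least 1 (2-fold) above control and at least 0.3 above both cold and PEG6000 leaves, while its mean in cold leaves was less than 1 above control. The 147 genes are 0.733% of those kept and 12.4% of the 1183 genes whose mean was at least 2-fold higher in NaCl than in control leaves (5.90% of those kept).

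Leaves came from self-rooted cuttings of the grape cultivar 'Thompson Seedless' kept in a greenhouse, and all groups share this background. There were 8 groups of 3 replicate libraries: trehalose with NaCl (Tre+NaCl), NaCl, trehalose with PEG6000 (Tre+PEG6000), PEG6000, trehalose with low temperature of 4 ℃ (Tre+cold), low temperature alone (cold), trehalose alone (Tre) and untreated control. Treatments lasted 48 h, and the sources used here give no concentrations, no sampling time for the control and no order of trehalose and stress. Whether replicates were separate plants is not in the labels. The p-values below therefore refer only to the scatter among these libraries, which may be technical.

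Salt stress has an osmotic part, in which water becomes harder to take up, and an ionic part, in which sodium and chloride build up in the leaf. Plants answer with abscisic acid signalling, compatible solutes and sodium transport out of the cytosol or into the vacuole. PEG6000 is a polymer that lowers water potential without sodium, so it imposes mainly the osmotic part, while cold slows membranes and metabolism and induces its own regulon. Trehalose is a disaccharide that plants make in traces, and its phosphorylated precursor signals sugar status. In the table, genes carry identifiers with no names or functions, and 0 of them matched the reference gene table, so no role is assigned to any gene below, leaf markers could not be checked, and sequences are not shown. In whole leaves, a change in the number of cells of a type and a change in RNA per cell cannot be told apart.

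Replicates lay close together over all genes kept, with Pearson correlations of log2(FPKM + 1) between 0.994 and 0.997 within groups and between 0.823 and 0.989 across groups. Library FPKM sums were between 597567 and 637648, and the sequencing depth is unknown. Among the 147 genes the replicate SD, averaged over groups, had a median of 0.087 on the log2 scale and exceeded 0.3 in 2 genes. The widest was PT_newGene_1460, which had 16.1, 19.7 and 17.3 FPKM in NaCl leaves and 0.486, 17.9 and 16 FPKM in control leaves. Its values were also split within PEG6000 (0.218, 8.56 and 0.216 FPKM), Tre+PEG6000 (0.784, 31.6 and 30.3 FPKM) and Tre+cold leaves (11.3, 0.113 and 15.1 FPKM). It was the 1 gene of the set whose NaCl libraries did not all lie above its control libraries.

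The values that chose the set are given here as a description, without a test. The difference of NaCl over control had a median of 1.34 on the log2 scale and reached 3.41. Levels were modest: the median of the 147 mean FPKM values was 8.64 in NaCl leaves and 2.58 in control leaves. All 3 NaCl libraries reached 10 FPKM for 68 genes, and all 3 control libraries did for 18. In control leaves 40 genes were below 1 FPKM in every library, while none (0) was in NaCl leaves. Only through the NaCl libraries did 12 genes pass the filter on low values, and such genes had to differ.

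Together the 147 genes took a small share of the expression of a leaf. That share was 0.408, 0.411 and 0.408% of the FPKM total in the NaCl libraries and 0.119, 0.122 and 0.122% in the control libraries. In the stresses that the rule held lower, it was 0.188 ± 0.00053% under PEG6000 and 0.135 ± 0.00087% in cold (SD, n = 3 each). In the trehalose groups, which the rule did not use, it was 0.199 ± 0.00083% in Tre+NaCl, 0.190 ± 0.0095% in Tre+PEG6000, 0.152 ± 0.0017% in Tre+cold and 0.147 ± 0.0013% in Tre leaves (SD, n = 3 each). All 3 Tre+NaCl libraries thus lay below the NaCl libraries and above the Tre libraries. Because the rule required high NaCl means, the gap to the NaCl libraries follows in part from the choice of genes. It carries no test.

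**Figure D1:**
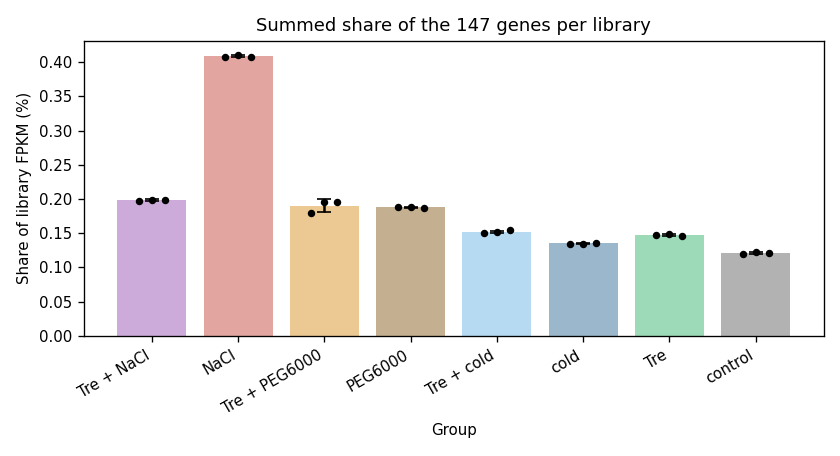
Share of the FPKM total of each library taken by the 147 genes (y axis, %), by group (x axis). Bars are means of 3 libraries, error bars are SD and points are libraries. NaCl libraries, which the rule required to be high, sit at 0.408 to 0.411%, Tre+NaCl libraries at 0.198 to 0.199%.

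Among genes averaging 5 FPKM or more in NaCl leaves, the largest differences of NaCl over control, 3.41 and 3.35 on the log2 scale, belonged to Vitvi11g00097 and Vitvi07g02605. Vitvi11g00097 had 14.1, 13.2 and 13.8 FPKM in NaCl leaves, 6.14, 7.40 and 7.25 FPKM under PEG6000, 0.781, 1.13 and 0.777 FPKM in cold and 0.507, 0.322 and 0.311 FPKM in control leaves. Vitvi07g02605 had 14.4, 13.4 and 14.6 FPKM in NaCl leaves, 6.04, 6.18 and 5.82 FPKM under PEG6000, 1.53, 1.88 and 1.69 FPKM in cold and 0.557, 0.495 and 0.400 FPKM in control leaves. In both genes every NaCl library lay above every library of the other groups just given, and PEG6000 stood between salt and control. With trehalose the same genes were low under salt, at 1.79, 1.62 and 1.27 FPKM and at 0.645, 0.719 and 0.697 FPKM in Tre+NaCl leaves.

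At the edges of the rule, the gene just inside the limit of 1 over control differed by 1.00 and the gene just outside by 0.99. For the margin of 0.3 over cold the values were 0.32 inside and 0.28 outside, and for the margin over PEG6000 they were 0.301 inside and 0.297 outside. The limit on cold passed a gene at 0.92 and left out one at 1.06. The limit over control alone left out 4308 genes that met every other condition, the margin over PEG6000 left out 466, the limit on cold 15 and the margin over cold 3. The size of the set also depends on the scaling. All genes kept had a median difference of NaCl over control of 0.14, and scaling by median-of-ratios factors, which brings this to -0.01, leaves 83 genes that meet the rule. Quantile normalization gives 92 genes.

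The set divides by its behaviour under PEG6000. In 30 genes the PEG6000 mean was at least 2-fold over control (14.4% of all genes kept), and these had a median difference of 2.1 under NaCl. The other 117 genes had a median of 1.23 under NaCl, and 27 genes had a PEG6000 mean below control, 5 of them by 2-fold or more (7.73% of all genes kept). Cold means were below control in 79 of the 147 genes, by 2-fold or more in 12 (13.6% of all genes kept), and 16 genes were below control under both PEG6000 and cold. These counts use the libraries that chose the set and support nothing by themselves.

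**Figure D2:**
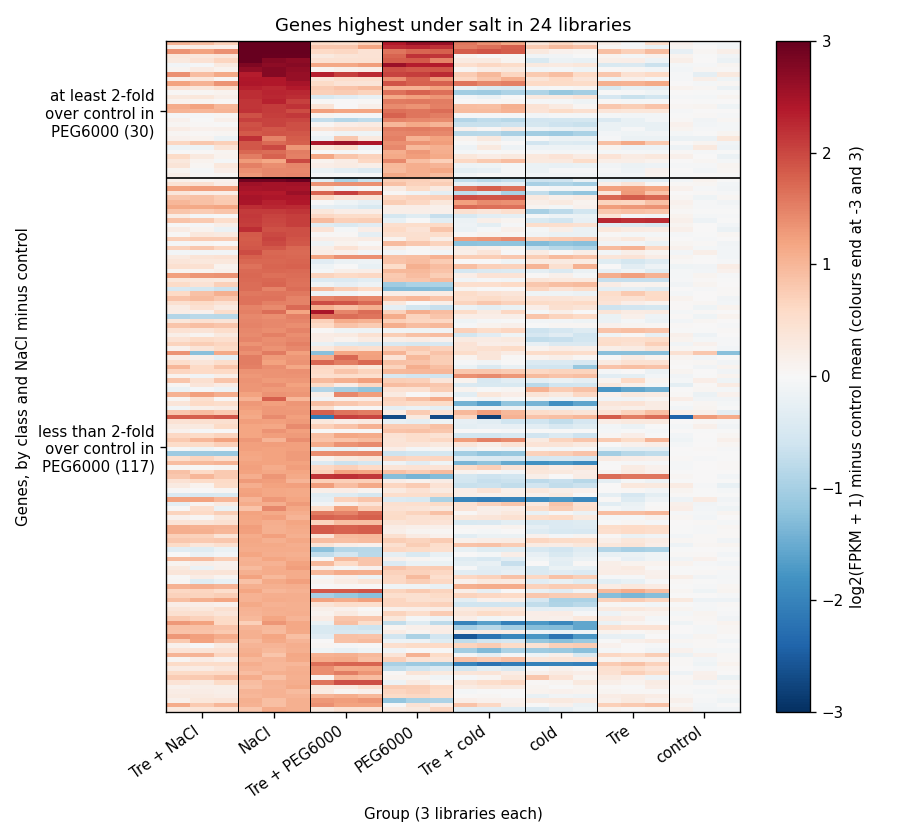
Difference of each library from the control mean on the log2(FPKM + 1) scale (colour) for the 147 genes (rows) in 24 libraries (columns, grouped), with rows divided by the PEG6000 mean into 30 and 117 genes and ordered by NaCl minus control. The NaCl columns are red throughout because the rule required it, while the Tre+NaCl columns are pale and some rows of the lower block are red under Tre+PEG6000.

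Over all 8 groups, NaCl leaves had the highest mean for 118 of the 147 genes. Tre+PEG6000 leaves were highest for 23 genes, Tre+cold for 3, Tre+NaCl for 2 and Tre for 1. The shares of all genes kept that peaked in each group are not given here. These peaks are therefore not shown to be particular to the set. In 101 genes all 3 NaCl libraries exceeded all 21 other libraries, which was true of 3.97% of all genes kept. Because the rule held NaCl means above control, cold and PEG6000 means, both NaCl counts follow in part from the choice of genes. They carry no test. Over the 23 genes that peaked in Tre+PEG6000 leaves the median excess over NaCl was 0.39 on the log2 scale. These genes were picked for being highest there, so an excess was required, and its size was not tested. In 1 of the 23 was the PEG6000 mean at least 2-fold over control.

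The question that the trehalose groups answer independently is whether salt raised these genes when trehalose was present, since neither Tre+NaCl nor Tre leaves were used to choose them. It did so for part of the set and mostly by less than 2-fold. Tested with limma over all 20053 genes, at a Benjamini-Hochberg adjusted p below 0.05, 71 of the 147 genes (48.3%) rose and 14 (9.52%) fell in Tre+NaCl relative to Tre leaves, where 33.4% of all genes rose and 16.1% fell. At 2-fold or more 8 genes rose and 1 fell, against 0.888 and 0.539% of all genes. The median difference was 0.19 on the log2 scale for the set and 0.07 for all genes kept. The set's median was 0.39 with a pseudocount of 0.1, 0.41 with 0.01, 0.42 for its 63 genes averaging 5 FPKM or more, and 0.12 under median-of-ratios scaling. Without Tre replicate 2, 9 genes fell. With median-of-ratios scaling 57 genes rose and 14 fell, against 21.2 and 24.2% of all genes. Of the 147 genes, 123 reached 1 FPKM in at least 3 of the 12 trehalose libraries. The others include the 12 genes that passed the filter only through NaCl libraries. All of them stayed in the main counts and medians of every comparison, and no count that leaves out just the 12 is given.

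Set beside the effect without trehalose, the salt effect was smaller in 141 of the 147 genes. In 112 genes it was below 0.5 on the log2 scale in Tre+NaCl relative to Tre leaves, although each was at least 1 in NaCl relative to control leaves. Among the 30 genes at least 4-fold higher in NaCl than in control leaves, which were picked on that value, the median was 2.41 without trehalose and 0.16 with it. Of these 30 genes 14 rose in the test, a share close to that of the whole set, and 0 reached 2-fold. Across the 147 genes, which are not independent replicates and were cut off at 1 on one axis, Pearson's r between both effects, which share no library, was -0.10 and Spearman's rho was -0.07. NaCl and control libraries were selected to be far apart, which enlarges the first of these effects, so the gap between them was not tested. The 1036 other genes at least 2-fold higher in NaCl than in control leaves were chosen from the same libraries. Of those, 761 rose and 25 fell in Tre+NaCl relative to Tre leaves, 105 and 1 of them by 2-fold, and the difference between the lists was not tested.

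**Figure D3:**
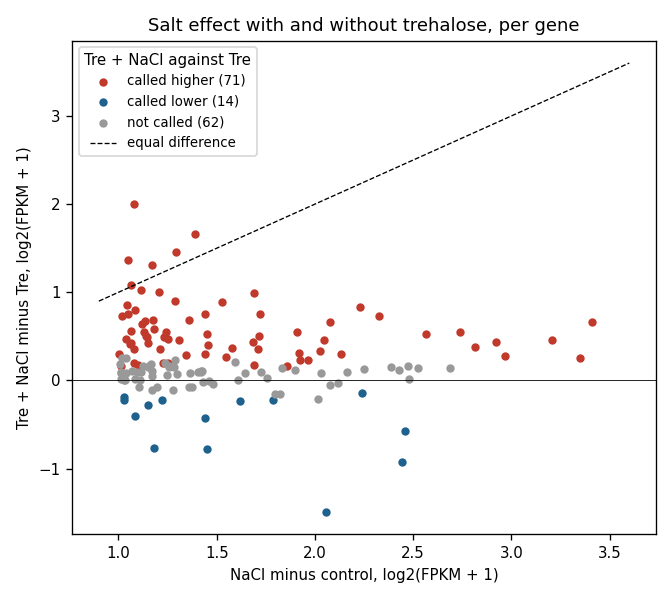
Difference of Tre+NaCl over Tre leaves (y axis) against that of NaCl over control leaves (x axis), both on the log2(FPKM + 1) scale, for the 147 genes; points are genes, coloured by the limma call of the y axis. Most points lie below the dashed line of equal difference, 71 are called higher and 14 lower.

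The gene of the set with the strongest salt response in trehalose leaves was Vitvi10g01679. It had 83.1, 81.8 and 86.6 FPKM in Tre+NaCl leaves, against 20.8, 19.1 and 20.7 FPKM in Tre leaves, a log2 change of 2.00 (SE 0.046, limma adjusted p = 5.55e-20). Its level in control leaves, 51.5 ± 0.77 FPKM (SD, n = 3), lay above that in Tre leaves, and NaCl leaves had 110 ± 1.7 FPKM (SD, n = 3). Cold leaves without trehalose averaged 88.0 FPKM, and it was the gene just inside the margin of 0.3 over cold (0.32). Trehalose alone thus went with a lower level of this gene, and salt and trehalose together with a level between control and NaCl leaves. Vitvi10g04088 was likewise lowest in Tre leaves, but its Tre+NaCl level did not pass that of control leaves: it had 5.97, 6.74 and 6.13 FPKM in Tre+NaCl leaves against 1.37, 1.70 and 1.94 FPKM in Tre leaves (log2 change 1.45, SE 0.091, limma adjusted p = 6.75e-12), with 18.5 ± 0.40 FPKM in NaCl and 6.94 ± 0.33 FPKM in control leaves (SD, n = 3 each).

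A run of 3 consecutive identifiers, Vitvi03g04224, Vitvi03g04225 and Vitvi03g04226, also rose at least 2-fold with salt in trehalose leaves, as deposited. Vitvi03g04226 was the lowest of them, with a log2 change of 1.08. Vitvi03g04224 had 12.2, 12.2 and 10.2 FPKM in Tre+NaCl leaves, against 4.86, 3.34 and 4.09 FPKM in Tre leaves (log2 change 1.31, SE 0.19, limma adjusted p = 7.11e-06). Vitvi03g04225 had 14.4, 13.7 and 12.5 FPKM in Tre+NaCl and 4.24, 4.35 and 5.31 FPKM in Tre leaves (1.37, SE 0.22, limma adjusted p = 1.56e-05). The groups did not overlap in either gene. Without trehalose, Vitvi03g04224 averaged 11.8 ± 1.2 FPKM in NaCl and 4.73 ± 0.90 FPKM in control leaves, and Vitvi03g04225 averaged 12 ± 1.2 FPKM in NaCl and 5.26 ± 0.37 FPKM in control leaves (SD, n = 3 each). The remaining members of the 8 are Vitvi14g01128, Vitvi07g04497 and Vitvi06g04299. With median-of-ratios scaling Vitvi14g01128 rose by 0.90, Vitvi07g04497 by 0.93 and Vitvi03g04226 by 0.99 on the log2 scale, each short of 2-fold. Vitvi14g01128 averaged 24.8 ± 0.71 FPKM in Tre+NaCl and 11.9 ± 0.090 FPKM in Tre leaves (SD, n = 3 each; log2 change 1.00), and 29.2 ± 0.18 FPKM in NaCl and 12.1 ± 0.31 FPKM in control leaves. Vitvi06g04299 had 5.07, 0 and 4.25 FPKM in Tre+NaCl leaves and is listed at 0 in all 3 Tre libraries and in 1 control library, so no fold is given for it. Its call (limma adjusted p = 0.0184) was lost without Tre+NaCl replicate 1 (limma adjusted p = 0.118), without Tre+NaCl replicate 3 (limma adjusted p = 0.096) and in a fit to the 6 libraries alone (limma adjusted p = 0.0702).

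The 1 gene that fell 2-fold was Vitvi18g00687. It had 9.61, 8.98 and 7.42 FPKM in Tre+NaCl leaves, against 26.9, 25.4 and 25.8 FPKM in Tre leaves, a log2 change of -1.49 (SE 0.10, limma adjusted p = 5e-11). Without trehalose it was at 23.9, 22.3 and 23.5 FPKM in NaCl leaves and at 5.48, 4.28 and 4.78 FPKM in control leaves. The levels in NaCl and in Tre leaves were thus high, and those in Tre+NaCl leaves lay between them and control. Vitvi02g00435 showed a like order, with 12.6, 13.1 and 12 FPKM in Tre+NaCl and 24.1, 26.1 and 24.3 FPKM in Tre leaves (log2 change -0.93, SE 0.060, limma adjusted p = 1.1e-11), and with 40.6 ± 0.76 FPKM in NaCl and 6.66 ± 0.54 FPKM in control leaves (SD, n = 3 each).

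Relative to salt alone, the set was lower when trehalose was given with salt. The Tre+NaCl mean was below the NaCl mean in 145 of the 147 genes, by 2-fold or more in 79 (3.59% of all genes kept), while 0 were 2-fold higher (0.868%), and every Tre+NaCl library lay below every NaCl library in 132 (35.6% of all genes kept). The median difference was -1.05 on the log2 scale. Values of the same size were found in the 1036 other genes at least 2-fold higher in NaCl than in control leaves: 57.9% of them were 2-fold lower, against 53.7% of the set, 96.0% had every Tre+NaCl library below every NaCl library, against 89.8% of the set, and their median was -1.12. The exceptions in the set were Vitvi03g04225 and PT_newGene_1460. Relative to control leaves the Tre+NaCl mean stayed at least 2-fold higher in 17 genes (0.898% of all genes kept) and 2-fold lower in 1 (0.0997%), and in 85 genes it was within 0.5 of control. The NaCl libraries were picked for being high and the control libraries for being low, so these values carry no test.

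Trehalose alone was close to control for most of the set, with a median difference of 0.10 on the log2 scale. In 9 genes the Tre mean was at least 2-fold above control and in 3 at least 2-fold below, against 1.03 and 0.130% of all genes kept, again with controls chosen low. The 3 lower ones were Vitvi10g04088, Vitvi10g01679 and Vitvi06g04299. Among the higher ones were Vitvi18g00687 and Vitvi02g00435, described above, and Vitvi14g01449, which had 42.4, 44.1 and 45.2 FPKM in Tre leaves and 18.3, 16.7 and 17.0 FPKM in control leaves.

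PEG6000 in the presence of trehalose moved the set in somewhat larger shares than all genes as deposited, and the gap was wider at 2-fold. In Tre+PEG6000 relative to Tre leaves 84 genes (57.1%) rose and 26 (17.7%) fell by limma, against 48.0 and 15.5% of all genes. At 2-fold or more 23 (15.6%) rose and 5 (3.40%) fell, against 6.17 and 0.753% of all genes. The median difference was 0.38 in the set and 0.15 in all genes kept. With median-of-ratios scaling 73 rose and 31 fell, against 32.5 and 26.7% of all genes, and with quantile normalization 62 rose and 39 fell, against 28.3 and 33.9% of all genes. Under both scalings the share of the set that fell was thus below that of all genes, while the share that rose stayed above it. Of the 1036 other genes at least 2-fold higher in NaCl than in control leaves 91.1% rose and 54.9% rose by 2-fold or more. Both shares were above those of the set, and the difference between the lists was not tested. The groups divided by PEG6000 without trehalose were counted apart here: 16 of the 30 genes and 68 of the 117 genes rose, 5 and 18 of them 2-fold, and the difference was not tested. Relative to PEG6000 without trehalose, 25 genes were 2-fold higher in Tre+PEG6000 leaves (10.9% of all genes kept) and 25 were 2-fold lower (8.71%), with no test.

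Vitvi11g01692 rose most. It had 27.2, 27.9 and 28.2 FPKM in Tre+PEG6000 leaves against 4.33, 5.03 and 5.34 FPKM in Tre leaves (log2 change 2.29, SE 0.060, limma adjusted p = 1.02e-19). Without trehalose the order was the other way round, with 5.95, 6.38 and 6.47 FPKM under PEG6000 and 9.69, 9.90 and 9.75 FPKM in control leaves. Vitvi03g01770 had 5.88, 5.73 and 6.02 FPKM in Tre+PEG6000 and 0.953, 0.988 and 1.23 FPKM in Tre leaves (1.74, SE 0.088, limma adjusted p = 2.58e-14). Both genes were highest in Tre+PEG6000 leaves of all groups. Vitvi14g01449 fell, with 14.2, 13.7 and 12.2 FPKM in Tre+PEG6000 leaves against 42.4, 44.1 and 45.2 FPKM in Tre leaves (-1.65, SE 0.048, limma adjusted p = 7.69e-19), and Vitvi18g00687 fell by 1.41 (SE 0.10, limma adjusted p = 3.12e-11).

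Cold in the presence of trehalose moved the set both ways. In Tre+cold relative to Tre leaves 53 genes (36.1%) rose and 55 (37.4%) fell by limma, against 30.3 and 52.6% of all genes, and at 2-fold 8 rose and 14 fell, against 11.5 and 11.7%. The median difference was 0.00 in the set and -0.20 in all genes kept. Under median-of-ratios scaling, which brings the median of all genes to 0.00, 63 genes rose and 46 fell, against 40.8 and 39.98% of all genes.

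Vitvi10g01679 and Vitvi10g04088, the leading genes under salt with trehalose, also led in the cold. Vitvi10g01679 had 81.8, 80.2 and 79.0 FPKM in Tre+cold leaves against 20.8, 19.1 and 20.7 FPKM in Tre leaves (log2 change 1.94, SE 0.046, limma adjusted p = 2.26e-21). Vitvi10g04088 had 7.47, 6.88 and 7.22 FPKM in Tre+cold leaves and 1.37, 1.70 and 1.94 FPKM in Tre leaves (1.62, SE 0.091, limma adjusted p = 5.66e-14). Both were near their lowest levels in Tre and Tre+PEG6000 leaves, so their Tre values enter both comparisons. Vitvi17g01414 fell to 1.12, 0.787 and 0.959 FPKM in Tre+cold leaves against 13.0, 14.2 and 12.6 FPKM in Tre leaves (-2.87, SE 0.070, limma adjusted p = 4.97e-21). Its level without trehalose was also near 1 FPKM in cold (1.05, 1.07 and 1.01 FPKM). Vitvi03g01500 had 6.18, 5.69 and 6.07 FPKM in Tre+cold leaves against 31.9, 30.7 and 30.8 FPKM in Tre leaves (-2.20, SE 0.066, limma adjusted p = 2.35e-19).

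**Figure D4:**
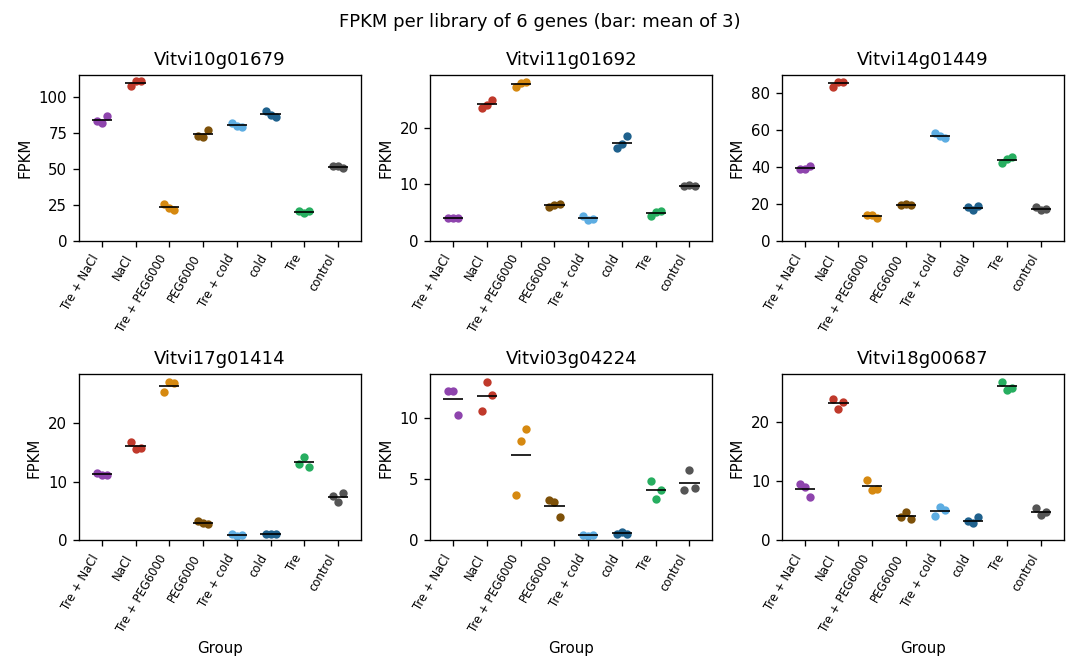
FPKM of 6 genes (panels) in each library (points) by group (x axis), with a bar at the mean of 3 libraries and y axes from 0. Vitvi10g01679 is low in both Tre and Tre+PEG6000 leaves, Vitvi11g01692 peaks at 27.2 to 28.2 FPKM in Tre+PEG6000 leaves, and Vitvi03g04224 reaches 10.2 to 12.2 FPKM in Tre+NaCl leaves.

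Whether these genes were still highest under salt once trehalose was added was tested directly. In Tre+NaCl relative to Tre+PEG6000 leaves 44 genes (29.9%) were higher and 56 (38.1%) lower by limma, where 22.1 and 39.2% of all genes were, and at 2-fold 9 were higher and 17 lower, against 0.918 and 6.16%. The median difference was -0.07 in the set and in all genes kept, although the rule had placed NaCl above PEG6000 for every gene without trehalose. Quantile normalization turns both medians, to 0.07 in the set and 0.06 in all genes. Among genes averaging 5 FPKM or more, the 63 of the set had a median of 0.17, where all genes had -0.06. Relative to Tre+cold leaves 79 genes (53.7%) were higher in Tre+NaCl leaves and 32 (21.8%) lower, against 56.3 and 27.7% of all genes, with 21 and 4 at 2-fold, against 12.2 and 9.92%. Median-of-ratios scaling gave 62 higher and 48 lower, against 38.5 and 42.0% of all genes. The median of all genes was 0.26 as deposited and -0.02 under that scaling.

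**Figure D5:**
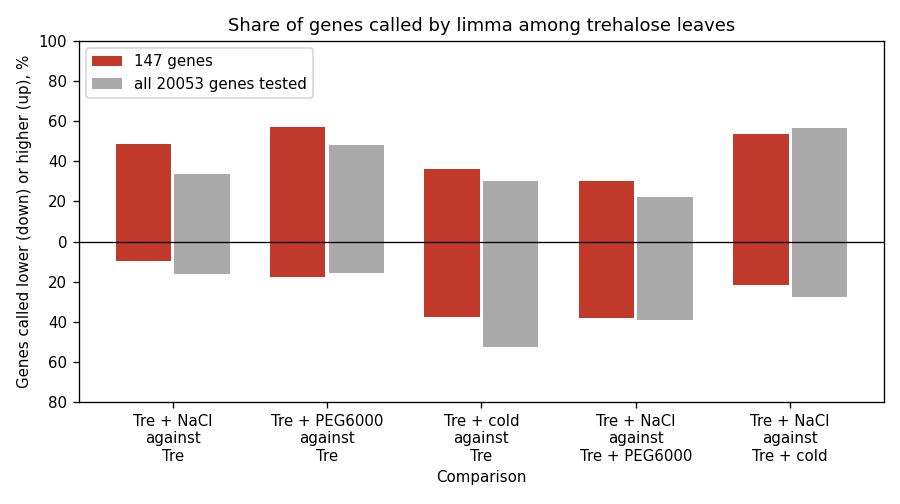
Percentage of genes called higher (up) or lower (down) by limma at an adjusted p below 0.05 (y axis) in 5 comparisons among trehalose leaves (x axis), for the 147 genes (red) and all 20053 genes tested (grey). For Tre+NaCl against Tre leaves, 48.3% of the set and 33.4% of all genes are called higher.

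Single genes differed strongly between the stresses with trehalose. Vitvi14g01128 had 24, 24.8 and 25.4 FPKM in Tre+NaCl leaves against 8.82, 7.40 and 8.01 FPKM in Tre+PEG6000 leaves (log2 difference 1.51, SE 0.068, limma adjusted p = 4.05e-15). For Vitvi06g01043 the values were 0.204, 0.257 and 0.235 FPKM in Tre+NaCl and 5.91, 6.0 and 5.71 FPKM in Tre+PEG6000 leaves (-2.48, SE 0.099, limma adjusted p = 4.08e-16), while without trehalose NaCl leaves had 5.03, 4.78 and 5.28 FPKM. Groups did not overlap in either gene. Vitvi10g01679 was higher in Tre+NaCl than in Tre+PEG6000 leaves by 1.82 (SE 0.046, limma adjusted p = 7.32e-20) and Vitvi11g01692 was lower by -2.51 on the log2 scale (SE 0.060, limma adjusted p = 2.47e-20). Against Tre+cold leaves, at 0.457, 0.375 and 0.432 FPKM, Vitvi03g04224 was higher in Tre+NaCl leaves by 3.14 (SE 0.19, limma adjusted p = 4.29e-13), and its neighbour by number Vitvi03g04225 by 3.45 (SE 0.22, limma adjusted p = 5.64e-13). Vitvi10g00564 was lower in Tre+NaCl leaves, with 2.68, 2.17 and 2.85 FPKM against 7.72, 8.11 and 7.44 FPKM in Tre+cold leaves (-1.30, SE 0.077, limma adjusted p = 2.08e-13), and so was Vitvi02g00435 (-1.07, SE 0.060, limma adjusted p = 5.48e-14).

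Some genes of the set carry neighbouring identifiers, which the rule did not use. Among the 147 genes, 143 have Vitvi identifiers and 4 (2.72%) PT_newGene identifiers, close to the 2.37% of all genes kept. There were 7 pairs of consecutive Vitvi numbers, formed by 12 genes. Of the 70 genes whose next number was among the genes kept, 7 (10%) were followed by another gene of the set, which holds 0.733% of the genes kept. The same count was not made for other lists, so it is not shown to be particular to this set. Identifiers were not matched to positions here, and reads of similar or overlapping gene models may have been divided between them, so members of a pair are not independent. Vitvi07g02604 and Vitvi07g02605 averaged 5.08 and 14.1 FPKM in NaCl leaves and 0.0958 and 0.484 FPKM in control leaves. Vitvi13g02008 and Vitvi13g02009 averaged 11.4 and 5.63 FPKM in Tre+PEG6000, 6.69 and 4.38 FPKM in NaCl and 1.23 and 1.09 FPKM in control leaves, so both were highest in Tre+PEG6000 leaves.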

How the data were processed

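RNA-seq values were available as 1 table of FPKM computed by the authors, with 1 column per library and 0 columns left unused; per the submitters' processing notes, the tools included StringTie 2.1.3b, HISAT2 2.1.0, SAMtools 1.9 and fastp 0.20.0, with roles, genome build, annotation and strandedness not given in the sources used here. FPKM ties each gene to its library's total, and the depth is unknown: ratios between 2 control libraries over 1911 genes under 0.2 FPKM did not pile up (at most 1.99% fell in any 2% window), so whole reads were not recovered. The 147 genes, the lists and the tests were chosen with earlier results of these data known; pathway lists could not be matched to identifiers and were not used. Genes at 1 FPKM or above in 3 or more libraries were tested on log2(FPKM + 1) with limma 3.58.1 (R 4.3.3), 1 mean per group, a variance trend and 16 residual degrees of freedom, and the step was tested on simulated data. Fold changes on this scale understate those of low genes. P-values are two-sided and adjusted by Benjamini-Hochberg over all 20053 genes within each of 5 comparisons, which use trehalose groups only and share Tre or Tre+NaCl libraries. Comparisons with libraries that chose the set have no test. Named genes are, per comparison, the called genes of the set that moved most, 2 upward and 2 downward (higher group averaging 5 FPKM or more, replicates not overlapping), and the 2 with the largest difference of NaCl over control; others were named after their values were seen. Alternatives covered pseudocount, filter, scaling, variance model, libraries in the fit, a replicate block, left-out libraries and a 2-fold limit. Figures used Python 3.11.15 and matplotlib 3.10.9.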

Additional observations from a re-analysis of the deposited data

Results flagged for a closer look

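Several named genes went opposite ways under different stresses in trehalose leaves, each effect called by limma relative to the same Tre libraries and the difference between the stresses called as well. Between salt and PEG6000, Vitvi14g01128 rose with salt (1.00) and fell with PEG6000 (-0.51), a log2 difference of 1.51. The reverse held for Vitvi11g01692 (-0.22 with salt and 2.29 with PEG6000, difference -2.51), for Vitvi06g01043 (-0.78 and 1.70, difference -2.48), for Vitvi03g01500 (-0.77 and 0.52, difference -1.29) and for Vitvi17g01414 (-0.22 and 0.94, difference -1.16). Between salt and cold, Vitvi03g04225 rose with salt and fell in the cold (1.37 and -2.08, difference 3.45), as did Vitvi03g04224 (1.31 and -1.83, difference 3.14) and Vitvi14g01128 (1.00 and -1.34, difference 2.34). Vitvi02g00435 (-0.93 with salt and 0.14 in the cold, difference -1.07), Vitvi06g01043 (-0.78 and 0.25, difference -1.03) and Vitvi14g01449 (-0.15 and 0.37, difference -0.52) went the other way. Of these 11 cases 9 stayed opposite and called under 6 other pseudocounts, filters and scalings; the exceptions were Vitvi17g01414 with a pseudocount of 0.01 (adjusted p of its salt effect 0.0527, limma) and Vitvi02g00435 with quantile normalization (adjusted p of its cold effect 0.0702, limma). In the whole set 10 genes rose with salt and fell with PEG6000 and 10 did the reverse, 6.80% each, where 3.03 and 6.20% of all genes did. Between salt and cold 26 genes (17.7%) rose with salt and fell in the cold and 4 (2.72%) did the reverse, where 14.0 and 2.32% of all genes did.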

How the results depend on the processing

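With a pseudocount of 0.1 or 0.01, 265 or 294 genes met the rule, with median-of-ratios scaling 83 and with quantile normalization 92, of which 131, 129, 83 and 87 belong to the 147. Leaving out 1 library of the rule gave 137 to 150 genes. At 2-fold, 8 genes were higher and 1 lower in Tre+NaCl against Tre leaves, 23 and 5 in Tre+PEG6000 against Tre, 8 and 14 in Tre+cold against Tre, 9 and 17 in Tre+NaCl against Tre+PEG6000, and 21 and 4 in Tre+NaCl against Tre+cold. A mean of at least 5 FPKM keeps only 63 of the 147 genes. Of these, 42 were higher and 8 lower in Tre+NaCl against Tre leaves, where 40.9 and 18.4% of all genes at this level were. The counts were 36 and 18 in Tre+PEG6000 against Tre, beside 51.7 and 20.1% of all genes. In Tre+cold against Tre they were 22 and 30, beside 31.0 and 54.5%. Tre+NaCl gave 31 and 24 against Tre+PEG6000 and 43 and 12 against Tre+cold. No share of all genes is set beside these counts, so they alone do not set the genes apart. The medians of all genes at this level were -0.06 and 0.25 in these comparisons, where the set had 0.17 and 0.63. Leaving out 1 library gave 61 to 69 higher and 9 to 14 lower, 78 to 87 and 25 to 26, 47 to 50 and 52 to 57, 42 to 45 and 51 to 58, and 76 to 80 and 28 to 31; the 9 came without Tre replicate 2. The other alternatives kept these counts within 1.5 times, and no gene named by the rule lost its call or turned in its comparison. Among the other genes called 2-fold in Tre+NaCl against Tre leaves, Vitvi06g04299 lost its call in the fits given above and Vitvi03g04226 with a pseudocount of 0.01 (limma adjusted p = 0.0536). The set's median log2 difference in the same order was 0.19, 0.38, 0.00, -0.07 and 0.27; it was 0.39, 0.60, 0.02, -0.09 and 0.42 with a pseudocount of 0.1, 0.42, 0.48, -0.16, 0.17 and 0.63 at 5 FPKM, 0.12, 0.16, 0.03, 0.07 and 0.14 after quantile normalization, and 0.12, 0.28, 0.08, -0.02 and 0.07 after median-of-ratios scaling. Same-numbered libraries of the trehalose groups deviated little together (correlations of -0.095 to 0.037). Libraries without trehalose were not checked, and such correlations cannot show that the numbers carry no pairing. With the replicate block 72 genes were higher and 14 lower in Tre+NaCl against Tre leaves, then 87 and 26, 53 and 54, 45 and 56, and 80 and 32 in the other comparisons. Of all genes, 33.1% were then higher and 16.1% lower in Tre+NaCl against Tre. The shares were 47.9 and 15.6% in Tre+PEG6000 against Tre and 30.3 and 52.5% in Tre+cold against Tre.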
